A study of Mus musculus with 18 samples.

Results

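The cortex of mice that had lived through 2 weeks of chronic intermittent hypoxia (CIH) was set against the cortex of mice held for as long in chronic consistent hypoxia (CCH). The members were chosen by the sample titles: 3 arrays titled CIH-Cortex and 3 titled CCH-Cortex, 6 of the 18 arrays of the series. The series' design text names CCH as the treatment of the CIH mice in one clause and CIH in the next; the titles and sample descriptions, which both give CIH, were followed, and the direction of every difference rests on them. The other 12 arrays held control cortex and the same 3 conditions in hippocampus, each in 3 replicates. Total RNA from frozen tissue was measured on Illumina Mouse-6 V1 bead arrays, whose probes report the abundance of transcripts as fluorescence intensity.

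Every group was made of CD-1 mice, an outbred strain, aged 16 days and labelled male. CIH cortex and CCH cortex came from mice whose exposure began at postnatal day 2, and control cortex came from mice given as the control for that treatment. The labels name neither the oxygen fraction nor the length of a hypoxic cycle, nor whether the 3 samples of a group came from 3 mice or from pools. The samples hold whole tissue, so more cells of a type and more RNA per cell cannot be told apart.

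Oxygen is sensed in most cells by prolyl hydroxylases, which mark the hypoxia-inducible factors (HIF) for destruction while oxygen is present. In hypoxia these factors bind a short DNA core, read ACGTG or GCGTG, and raise genes for glycolysis, vessel growth and red cell formation. Intermittent hypoxia restores oxygen in every cycle, whereas continuous hypoxia withholds it, and the first postnatal weeks are when oligodendrocytes of the rodent forebrain begin to lay down myelin.

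Several arrays stood apart before any comparison was made. Xist, an RNA made from the inactive X of female cells, lay at 6.56, 10.01 and 6.54 log2 units on CIH arrays 1, 2 and 3, against 6.55, 10.05 and 10.18 on CCH arrays 1, 2 and 3. Thus 1 CIH and 2 CCH arrays carried high Xist although labelled male. The raw intensity of the Y-linked gene Kdm5d was 161, 65.6 and 130.4 on CIH arrays 1, 2 and 3. On CCH arrays 1, 2 and 3 it was 169, 52.8 and 53.8. Kdm5d was thus lowest on the arrays with high Xist. The male label is in doubt for those arrays, and the groups may differ in sex, which was not tested. On the first principal component of the 6 arrays, which held 45% of their variance, CCH array 1 (25.6) and CIH array 2 (−18.8) lay farthest from 0. The mean raw intensity of the 18S ribosomal RNA probes was 12009, 9416.5 and 11710 on the CIH arrays, against 5132.3, 8551.7 and 8333.1 on the CCH arrays. The 18S values of the groups did not overlap. The part of 18S, of Xist and of single arrays in the gene results was not tested beyond the fits without arrays and with Xist as a covariate given below. Slc17a7, the vesicular glutamate transporter of cortical excitatory neurons, was detected on all 6 arrays, while the striatal receptor gene Adora2a was detected on 0 of 6, and Neurod6, Tbr1, Gad1, Gad2 and Ttr had no named probe. Each of the 3 slides carried 1 array of each group at a fixed position, so the position on a slide cannot be told apart from the group.

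Of 14659 probes tested, 69 were called between CIH and CCH cortex, 0.471% of the probes, 36 of them higher in CIH (0.246%) and 33 lower (0.225%). Calls needed an adjusted p under 0.05 in limma, with Benjamini-Hochberg adjustment over all probes tested; 1438 probes (9.81%) had an unadjusted p under 0.05. The called changes ran from 0.21 to 2.49 log2 units in size with a median of 0.62, and 15 of them, 7 rises and 8 falls, exceeded 1. All 69 called probes had CIH arrays that did not overlap the CCH arrays, which held for 13.9% of all probes tested, and the same direction on each of the 3 slides, which held for 36.7%. The probes were called on these same arrays, so both traits largely follow from the call and are no independent support for it. Names could be given to 20 of the called probes, 11 rises and 9 falls, and 49 stayed unnamed. Among the named probes alone the called share was 0.429%.

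The count depended on single arrays and on the arrays that set the spread. With the spread taken from the 6 compared arrays alone 33 probes were called, and 6 of the 20 named ones stayed called: Fgfr1op2, Acer2, Nudt19, Dctn4, Hba-a1 and Pop4. The other 14, among them Krt12 (adjusted p = 0.29, limma), Rgs8 (0.078), Scd2 (0.063) and Zfp24 (0.23), did not pass there. With all groups in the fit the count was 42 without CIH array 1, 31 without CIH array 2 and 35 without CIH array 3, and it was 42, 49 and 37 without CCH arrays 1, 2 and 3. Without CCH array 1 and CIH array 2 together it was 28, of which 22 were among the 69. Over the 13 arrays of the series with low Xist, which leave CCH cortex with array 1 alone, 368 probes were called, and 36 of the 69 were among them; the lone CCH array is there assumed to vary like the other groups.

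**Figure D1:**
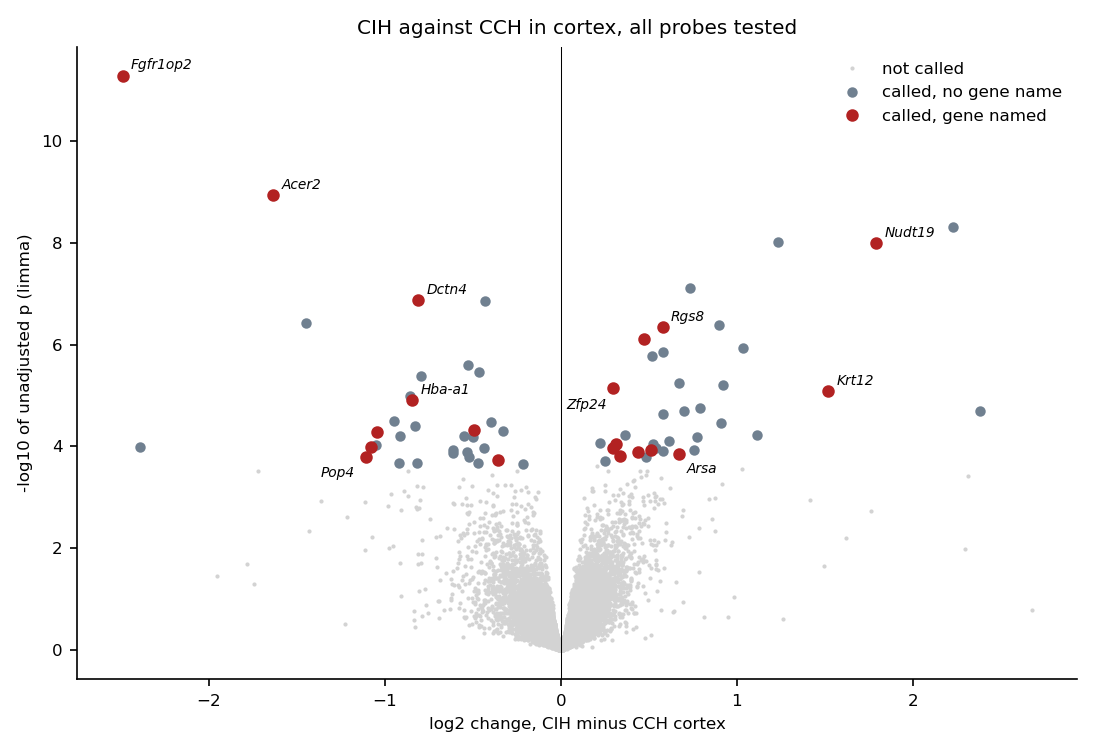
Log2 change (CIH minus CCH cortex, horizontal axis) against −log10 of the unadjusted limma p (vertical axis) for all 14659 probes tested. Red points are the 20 called probes with a gene name, dark points the 49 called probes without one and grey points the probes not called; Fgfr1op2 and Acer2 lie farthest up on the lower side and Nudt19 is the named gene with the largest rise.

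The start regions of 4 chosen genes of the comparison are printed here, because the HIF core can be looked for in them. They are Fgfr1op2 and Acer2, with the largest falls among the named genes, Nudt19, with the largest rise, and Hba-a1, the α-globin gene that was called. Each window is the 250 bases before the transcription start on the gene's own strand, from RefSeq on GRCm38.p6, and capitals mark ACGTG or GCGTG, read on either strand. The Fgfr1op2 window is chr6:146577653-146577902 (plus strand, the first of 2 listed starts), that of Acer2 is chr4:86874164-86874413 (plus), that of Nudt19 is chr7:35555929-35556178 (minus) and that of Hba-a1 is chr11:32283422-32283671 (plus).
Fgfr1op2: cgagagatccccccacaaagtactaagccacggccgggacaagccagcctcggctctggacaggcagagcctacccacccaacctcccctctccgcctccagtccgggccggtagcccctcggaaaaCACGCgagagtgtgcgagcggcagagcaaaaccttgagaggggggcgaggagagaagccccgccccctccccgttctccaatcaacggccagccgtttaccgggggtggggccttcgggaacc
Acer2: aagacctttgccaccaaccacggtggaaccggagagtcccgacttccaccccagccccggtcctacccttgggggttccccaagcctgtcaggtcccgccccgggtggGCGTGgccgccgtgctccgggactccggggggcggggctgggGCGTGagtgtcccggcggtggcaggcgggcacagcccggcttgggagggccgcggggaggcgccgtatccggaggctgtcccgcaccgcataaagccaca
Nudt19: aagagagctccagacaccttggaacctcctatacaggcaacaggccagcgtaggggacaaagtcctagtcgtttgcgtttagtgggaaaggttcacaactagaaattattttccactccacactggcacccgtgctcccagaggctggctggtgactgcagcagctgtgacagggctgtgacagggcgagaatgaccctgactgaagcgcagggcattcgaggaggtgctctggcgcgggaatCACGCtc
Hba-a1: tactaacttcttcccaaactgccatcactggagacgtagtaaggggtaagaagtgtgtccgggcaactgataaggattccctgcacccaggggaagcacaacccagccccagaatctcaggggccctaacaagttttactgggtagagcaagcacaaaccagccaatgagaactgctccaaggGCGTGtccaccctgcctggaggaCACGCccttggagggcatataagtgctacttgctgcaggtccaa
Acer2 and Hba-a1 held 2 cores each, Fgfr1op2 and Nudt19 1 each. Of the called genes not printed here, Krt12, Pop4, Fstl5, Ckb and Pde1a held no core in any listed start. Krt12, Pop4 and Fstl5 changed by more than Hba-a1. Of the 20 named called genes 15 had a window in the table, and 10 of these (66.7%) held a core in at least 1 of their starts, against 41.5% of the 27025 genes with a window. The match is of letters only, and genes with several starts have more windows in which one can fall. The share over all genes includes genes that the array did not name or detect. The windows differ in base composition: G and C make up 73.2% of the Acer2 window, 66.8% of that of Fgfr1op2, 56.4% of that of Nudt19 and 54.0% of that of Hba-a1.

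Fgfr1op2, named for the FGFR1 fusion partner it encodes, showed the largest fall of the named genes. It lay at 6.83, 6.59 and 6.80 log2 units in CIH cortex, at 9.36, 8.93 and 9.39 in CCH cortex and at 6.90, 6.72 and 6.89 in control cortex. The CCH arrays were the high ones, and the CIH arrays overlapped the control arrays. The change was −2.49 ± 0.12 (SE, n = 3 per group; limma, adjusted p = 7.8e-08). The probe was detected on 3 of 3 CCH arrays but not on CIH array 2 or control array 2, so the low levels lie close to the limit of detection and no exact fold is given. It was called without each array in turn (−2.64 to −2.41). A second probe for the gene was not detected on any of the 6 arrays and gave 0.01, so the fall rests on 1 probe.

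Acer2, an alkaline ceramidase of the Golgi that releases sphingosine from ceramide, fell too. Its levels were 7.81, 7.81 and 7.84 in CIH cortex, 9.19, 9.67 and 9.50 in CCH cortex and 7.21, 7.07 and 7.34 in control cortex. The 3 groups did not overlap, and CIH lay between control and CCH. CIH minus CCH was −1.63 ± 0.12 (SE, n = 3 per group; limma, adjusted p = 8.7e-06), or 3.11-fold higher in CCH, with −1.77 to −1.53 when single arrays were left out. Against control, CIH stood at 0.61 (adjusted p = 0.062, not passing) and CCH at 2.25 (adjusted p = 1.2e-07), both from limma and both measured against the same 3 control arrays.

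The hemoglobin transcripts, which encode the oxygen carrier of red cells, were lower in CIH than in CCH cortex. Hba-a1, an α-globin, lay at 13.51, 13.43 and 13.43 in CIH cortex, at 14.39, 14.29 and 14.22 in CCH cortex and at 12.98, 12.85 and 13.29 in control cortex. It fell by 0.84 ± 0.13 (SE, n = 3 per group; limma, adjusted p = 0.0076), or 1.79-fold higher in CCH. Hbb-b1, a β-globin, lay at 7.57, 7.00 and 7.31 in CIH cortex and at 8.61, 7.95 and 8.55 in CCH cortex. No CIH array of either gene reached the lowest CCH array. Hba-a1 was called without each array in turn (−0.89 to −0.80), but its adjusted p was 0.071 over the 13 arrays with low Xist (−0.92) and 0.11 without CCH array 1 and CIH array 2 (−0.79).

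Hbb-b1 changed by −1.08 ± 0.20 (limma, adjusted p = 0.031). Its call needed nearly all arrays: it passed without CCH array 2 or CIH array 1, and the adjusted p was 0.091 to 0.14 without any other one. Hbb-b2, the other measured β-globin, lay at 9.71, 9.03 and 9.73 in CIH cortex and at 10.90, 10.38 and 10.83 in CCH cortex, again without overlap, but its change of −1.21 ± 0.33 did not pass (limma, adjusted p = 0.17). The 3 measured genes of the 15 on the hemoglobin and erythroid list were all below 0, with a median of −1.08 and 2 called, against a median of 0.00 and 50.9% above 0 over all probes tested. Their mean log2 level per array was 9.82 to 10.26 in CIH cortex, 10.87 to 11.30 in CCH cortex and, on the control arrays, 9.48 to 10.21. The globin probes may share signal among family members, and how much blood each sample held was not measured.

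Nudt19, a Nudix hydrolase of peroxisomes that cleaves coenzyme A, showed the largest rise of the named genes. Its levels were 10.98, 11.60 and 11.49 in CIH cortex, 9.49, 9.59 and 9.62 in CCH cortex and 11.40, 11.43 and 11.37 in control cortex. The CCH arrays were the low ones by more than a full log2 unit. The change was 1.79 ± 0.15 (SE, n = 3 per group; limma, adjusted p = 3.0e-05), or 3.46-fold, and 1.67 to 1.98 without single arrays. Pop4, a protein subunit of ribonuclease P and MRP, lies on the same chromosome, with its window at chr7:38271349-38271598 (minus strand).

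Pop4 went the other way. It lay at 7.74, 7.88 and 7.65 in CIH cortex, at 8.82, 8.87 and 8.91 in CCH cortex and at 9.48, 8.79 and 8.87 in control cortex. Here the CIH arrays were the low ones, and CCH overlapped control. CIH minus CCH was −1.11 ± 0.22 (limma, adjusted p = 0.038). The adjusted p was 0.095 to 0.13 when any single array was left out and 0.066 with the slide as a block, so the call needed all 6 arrays. With Xist as a covariate the change was −1.09 and did not pass (limma, adjusted p = 0.057).

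Krt12, a type I keratin of the corneal surface, rose on the CIH arrays. It lay at 9.13, 9.06 and 8.13 in CIH cortex, at 7.71, 7.05 and 7.00 in CCH cortex and at 7.00, 7.18 and 7.03 in control cortex. CIH array 3 was the lowest of its group and CCH array 1 the highest of its own, with no overlap. The change was 1.52 ± 0.22 (SE, n = 3 per group; limma, adjusted p = 0.0054), and it was called without each array in turn (1.34 to 1.84). Over the 13 arrays with low Xist it was 0.92 (adjusted p = 0.16).

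Dctn4, a subunit of the dynactin complex that links dynein to its cargo, was lower in CIH. Its levels were 9.53, 9.71 and 9.60 in CIH cortex, 10.42, 10.46 and 10.39 in CCH cortex and 10.45, 10.40 and 10.34 in control cortex. CIH minus CCH was −0.81 ± 0.08 (limma, adjusted p = 0.00026). A second detected probe gave −0.19 and did not pass (adjusted p = 0.24), so the fall rests on 1 probe of 2. Fstl5, a secreted follistatin-like protein, was likewise low on the CIH arrays: 6.82, 6.83 and 6.71, against 7.89, 7.48 and 8.13 on the CCH arrays. It changed by −1.04 ± 0.18 (limma, adjusted p = 0.022), and passed without CCH array 2 but not without any other array (adjusted p = 0.070 to 0.095).

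**Figure D2:**
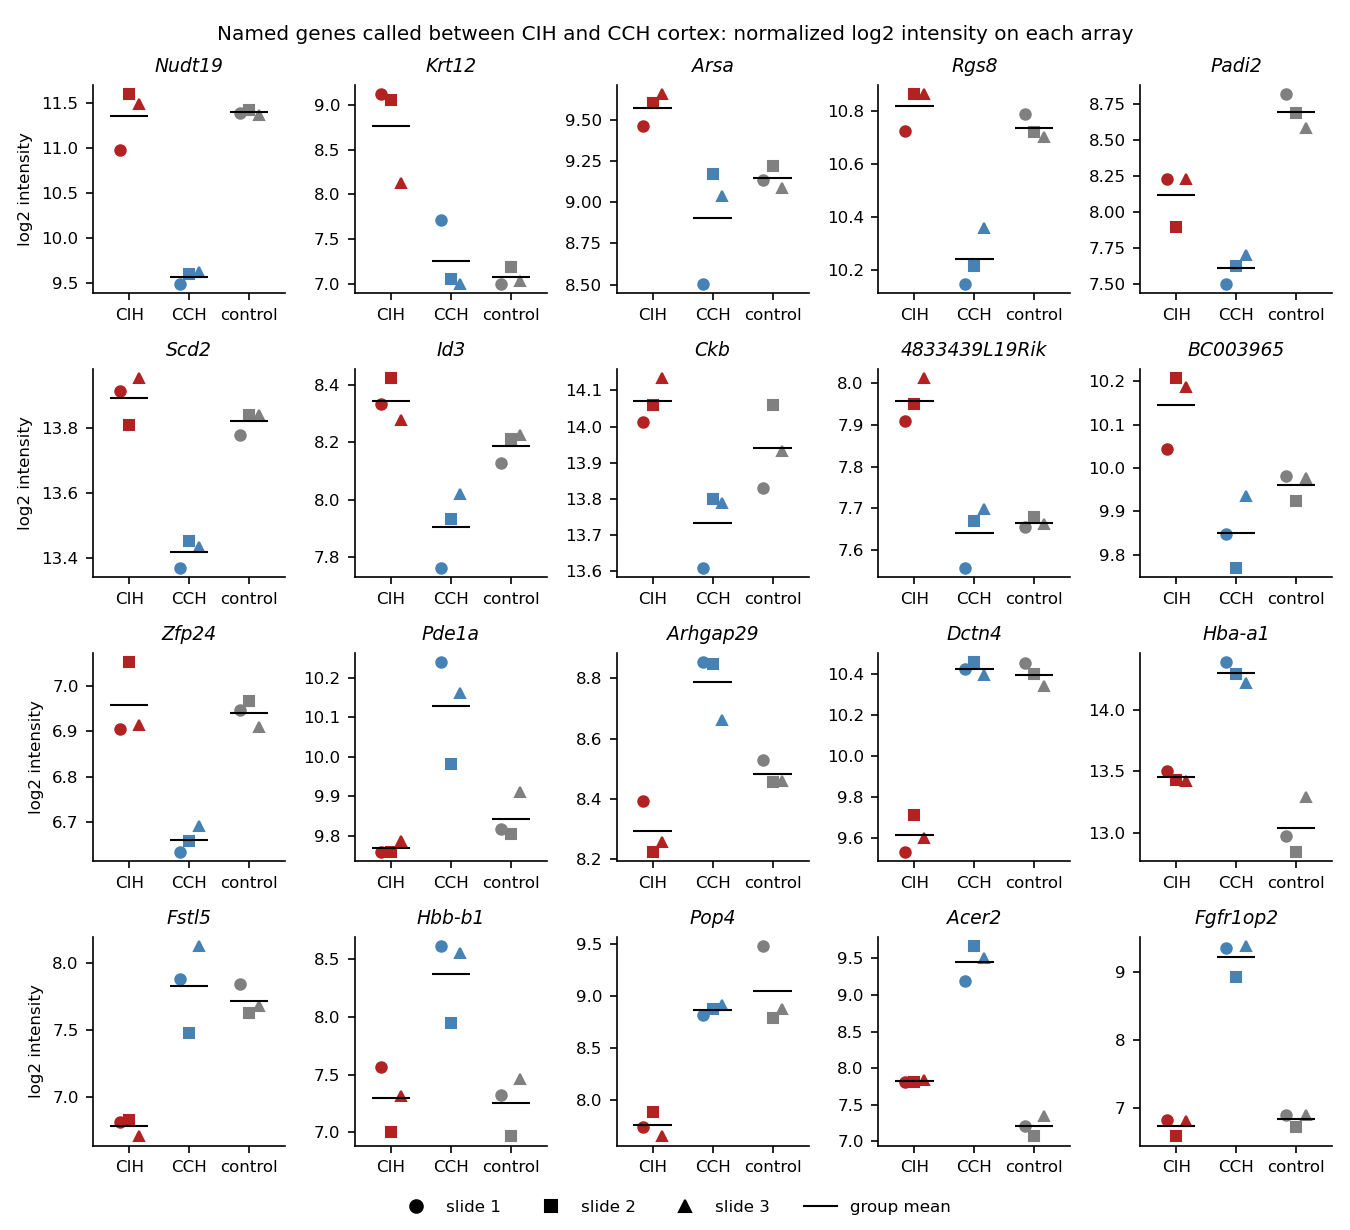
Normalized log2 intensity of the 20 named genes called between CIH and CCH cortex, on each CIH (red), CCH (blue) and control (grey) cortex array; marker shape gives the slide, lines are group means of 3 arrays, and each panel has its own vertical scale. In every panel the CIH points do not overlap the CCH points, and control lies with CIH for Fgfr1op2 and Nudt19 but with CCH for Krt12 and Dctn4.

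Scd2, the stearoyl-CoA desaturase that makes monounsaturated fatty acids in the developing brain, lay at 13.91, 13.81 and 13.95 in CIH cortex, against 13.37, 13.45 and 13.43 in CCH cortex. It rose by 0.47 ± 0.06 log2 units (SE, n = 3 per group; limma, adjusted p = 0.00093) and was called without each array in turn. Ckb, the brain creatine kinase, lay at 14.01, 14.06 and 14.13 in CIH cortex and at 13.61, 13.80 and 13.79 in CCH cortex. Its change was 0.34 ± 0.07 (limma, adjusted p = 0.038), with an adjusted p of 0.062 to 0.14 without any single array. Arsa, the lysosomal arylsulfatase that breaks down the myelin lipid sulfatide, lay at 9.46, 9.60 and 9.65 in CIH cortex and at 8.50, 9.17 and 9.04 in CCH cortex. CCH array 1 was its lowest array. Arsa rose by 0.67 ± 0.13 (limma, adjusted p = 0.035), by 0.47 without CCH array 1 and by 1.05 over the 13 arrays with low Xist (adjusted p = 0.0019), and it lost its call without CCH array 3 or any single CIH array (adjusted p = 0.065 to 0.14).

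Rgs8, a GTPase-activating protein that shortens G protein signals in neurons, lay at 10.72, 10.86 and 10.86 in CIH cortex, against 10.15, 10.21 and 10.36 in CCH cortex. It rose by 0.58 ± 0.07 (SE, n = 3 per group; limma, adjusted p = 0.00061) and stayed called without each array. Id3, an inhibitor of helix-loop-helix transcription factors, rose by 0.44 ± 0.08 (limma, adjusted p = 0.033), with 8.33, 8.42 and 8.28 in CIH cortex and 7.76, 7.93 and 8.02 in CCH cortex. Pde1a, a calmodulin-dependent phosphodiesterase of cyclic nucleotides, fell by 0.36 ± 0.07 (limma, adjusted p = 0.043), with 9.76, 9.76 and 9.79 in CIH cortex and 10.24, 9.98 and 10.16 in CCH cortex. Its second probe gave −0.65 and did not pass (adjusted p = 0.43). Arhgap29, a GTPase-activating protein of small G proteins, fell by 0.49 ± 0.09 (limma, adjusted p = 0.021), with 8.39, 8.22 and 8.26 in CIH cortex and 8.85, 8.85 and 8.66 in CCH cortex. Id3 kept its call without CCH array 3, Pde1a without CCH array 2, and Arhgap29 without CCH array 3 or CIH array 1; without any other single array the adjusted p was 0.068 to 0.15 for Id3, 0.11 to 0.16 for Pde1a and 0.076 to 0.092 for Arhgap29.

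The remaining named rises were small. Zfp24, a zinc finger protein needed for myelination in mice, lay at 6.90, 7.05 and 6.91 in CIH cortex and at 6.64, 6.66 and 6.69 in CCH cortex, where it was detected on 0 of 3 arrays. It was at least 1.18-fold higher in CIH (limma, adjusted p = 0.0050), a bound set by the lowest detected signal, and was called without each array in turn but not without CCH array 1 and CIH array 2 together (adjusted p = 0.064). BC003965 was at 0.30 ± 0.06 (limma, adjusted p = 0.031) and passed without CCH array 3 or CIH array 1 (otherwise 0.091 to 0.14). The first probe of 4833439L19Rik was at 0.32 ± 0.06 (limma, adjusted p = 0.030), which no longer passed without any single array (0.056 to 0.11), and its second probe gave −0.20. The nearest named genes that did not pass, with groups that did not overlap, were Cbfa2t3 at 1.03 (adjusted p = 0.057), Krit1 at −0.56 (0.077), Spock1 at −0.32 (0.094) and Ncbp2 at −0.41 (0.10).

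Padi2, a peptidylarginine deiminase that citrullinates myelin basic protein, was the called gene of the myelin list. It lay at 8.23, 7.90 and 8.23 in CIH cortex, at 7.50, 7.62 and 7.70 in CCH cortex and at 8.82, 8.68 and 8.58 in control cortex. The 3 groups did not overlap, and CIH lay between CCH and control. CIH minus CCH was 0.51 ± 0.10 (SE, n = 3 per group; limma, adjusted p = 0.032), and the adjusted p was 0.051 with the slide as a block. It passed without CIH array 2 but not without any other array (0.065 to 0.15), and over the 13 arrays with low Xist it was 0.73. With Xist as a covariate it was 0.48 and did not pass (limma, adjusted p = 0.052).

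Of 15 measured genes of the 29 on the myelin and mature oligodendrocyte list, 10 were above 0 and 5 below, with a median of 0.16, 1 called higher and 0 called lower. Mobp, a protein of compact myelin, was at −0.03, Mog, on the outer surface of the sheath, at −0.07 and Cnp, an enzyme of non-compact myelin, at −0.19, while Opalin was at 0.28 and Tmem125 at 0.34, and none of these passed. The mean level of the 15 genes per array was 8.86 to 9.07 in CIH cortex, 8.67 to 8.81 in CCH cortex and, on the control arrays, 9.27 to 9.34, with no overlap between groups. Within slides 1, 2 and 3 the median was 0.12, 0.13 and 0.29. Enpp2, a lysophospholipase D, is on this list and on that of choroid plexus and ependymal genes. Its values were 9.31, 8.05 and 9.29 in CIH cortex and 8.44, 7.26 and 8.10 in CCH cortex, which overlapped. Enpp2 (0.95, adjusted p = 0.73) and Clic6 (0.51, adjusted p = 0.87) were the measured genes of 15 on the choroid list, with a median of 0.73 and none called; both are named with their values known.

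Cholesterol synthesis, on which myelin membrane depends, had 9 of 12 measured genes above 0 and a median of 0.15, with none called. Cyp51, the lanosterol demethylase, was at 0.31 (adjusted p = 0.41). Astrocyte genes had 3 of 5 above 0 and a median of 0.08, with the water channel Aqp4 at 0.50 (adjusted p = 0.20) and the growth factor receptor Fgfr3 at 0.26 (adjusted p = 0.65). Oligodendrocyte precursor genes, 2 measured, had a median of −0.12, and of −0.40, −0.13 and 0.17 within slides 1, 2 and 3.

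Genes that respond to HIF did not pass between the exposures. All 5 measured genes of the 28 on the HIF target list were below 0, with a median of −0.05 and none called. With 0.429% of all named probes called, a list of 5 genes would rarely hold a call. Egln1, an oxygen-sensing prolyl hydroxylase that is itself induced by HIF, lay at 8.23, 8.37 and 8.59 in CIH cortex and at 8.88, 8.66 and 8.93 in CCH cortex. The groups did not overlap, and the change of −0.43 ± 0.15 did not pass (limma, adjusted p = 0.30). Mxi1, an antagonist of Myc, was at −0.15, and Egln3, Hif3a and Ero1a were within 0.05 of 0. These last genes were dim, with mean levels in CCH cortex of 7.01 for Egln3, 6.86 for Hif3a and 6.72 for Ero1a. The astrocyte gene Slc1a2, not detected on any CIH or CCH cortex array, reached 6.72 in CCH cortex. Such dim probes limit what can be seen, and the list median of −0.05 is the value of Hif3a. That median therefore cannot show whether HIF targets differed. Of 17 glycolysis genes 12 were below 0, with a median of −0.13 and none called. Pfkl, the liver type phosphofructokinase, was at −0.36 (adjusted p = 0.23), Ldha, the lactate dehydrogenase subunit, at −0.30 (adjusted p = 0.24) and Eno1, an enolase, at −0.29 (adjusted p = 0.41), and for each the CIH arrays did not overlap the CCH arrays. The mean level of the 17 genes was 10.90 to 10.97 per CIH array, 11.02 to 11.09 per CCH array and 10.89 to 10.97 per control array. With median scaling in place of quantile normalization, which moved the median of all probes by under 0.1 log2 units, the glycolysis median was −0.05.

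Endothelial genes were below 0 in 6 of 6 measured cases of the 22 listed, with a median of −0.21 and none called. Eng, a co-receptor of vessel walls, lay at 7.28, 7.39 and 7.29 in CIH cortex, against 8.29, 7.80 and 7.46 in CCH cortex, and its change of −0.53 ± 0.14 did not pass (limma, adjusted p = 0.15). CCH array 1 was its highest array: without it the change was −0.31 (adjusted p = 0.26), whereas without CCH array 3 Eng passed at −0.73 (adjusted p = 0.011), as it did over the 13 arrays with low Xist at −1.01 (adjusted p = 0.00096). Pecam1, an adhesion protein of endothelial junctions, was at −0.28 (adjusted p = 0.15) and the guidance receptor Robo4 at −0.32 (adjusted p = 0.50). The mean level of the 6 genes was 7.65 to 7.66 per CIH array, 7.86 to 7.95 per CCH array and 7.54 to 7.66 per control array. Over those 13 arrays, where CCH cortex has array 1 alone, the median of the list was 0.02. The hemoglobin list above was lower in the same CIH arrays, and its part in the endothelial values was not tested.

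**Figure D3:**
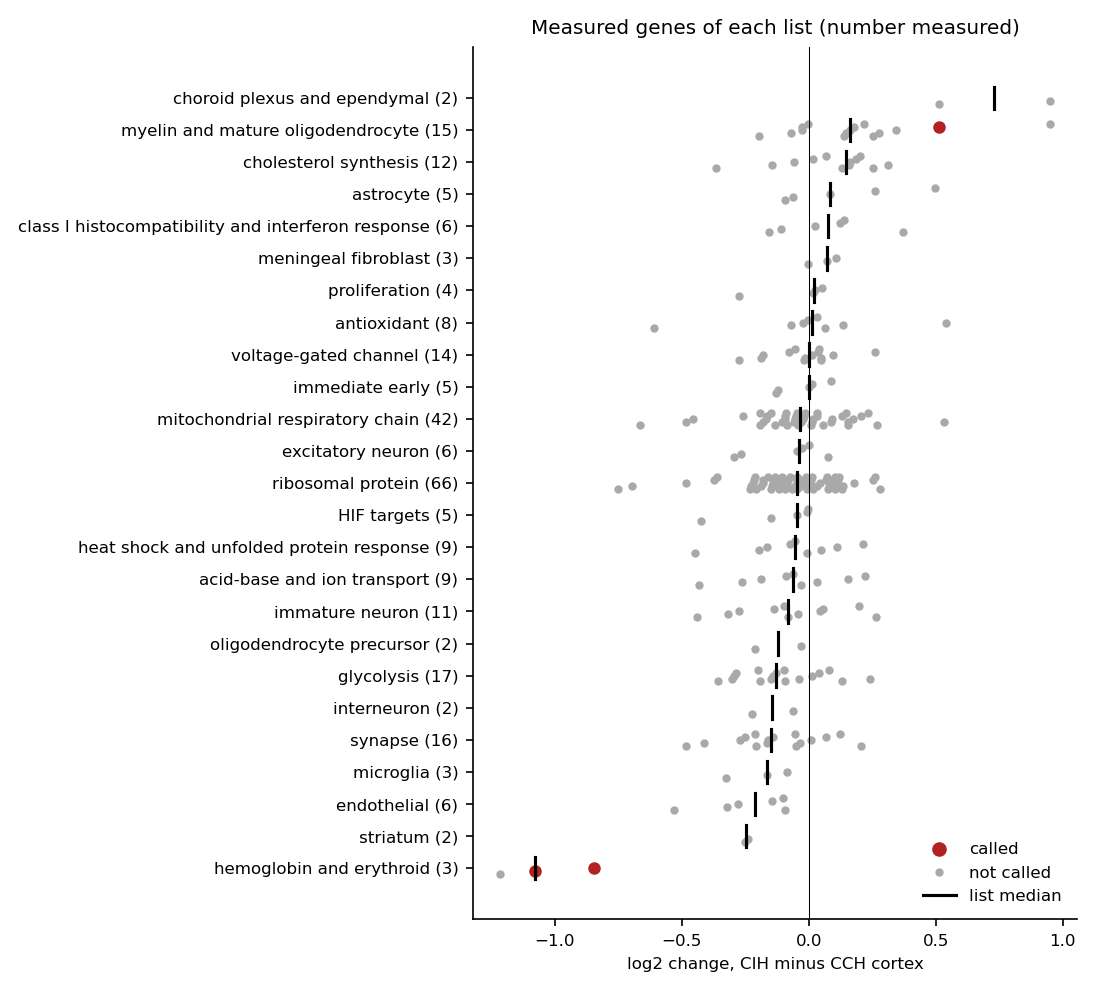
Log2 change (CIH minus CCH cortex) of each measured gene in 25 lists, with black bars for list medians and red points for called genes; the number measured follows each name. The hemoglobin and erythroid list has the lowest median (−1.08), and Hba-a1, Hbb-b1 and Padi2 are the called list members.

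In neuronal and other lists no gene was called. Over all named probes tested the called share was 0.429%, so lists of these sizes would hold few or no calls at that share. The same limit holds for the lists above that had none called. The medians were −0.15 for synapse (4 of 16 above 0), −0.04 for excitatory neuron (2 of 6), −0.14 for interneuron (0 of 2), −0.08 for immature neuron (4 of 11), −0.25 for striatum (0 of 2) and 0.00 for voltage-gated channel genes (7 of 14). They were −0.05 for ribosomal protein (24 of 66), −0.04 for mitochondrial respiratory chain (17 of 42), −0.06 for acid-base and ion transport (3 of 9) and −0.06 for heat shock and unfolded protein response (3 of 9). With median scaling 3 of these medians were above 0: ribosomal protein at 0.03, respiratory chain at 0.03 and excitatory neuron at 0.01. Within slides 1, 2 and 3 the ribosomal median was −0.08, 0.00 and −0.06, and that of the respiratory chain −0.04, 0.06 and −0.05. Of ribosomal genes whose groups did not overlap, 9 were higher in CIH and 1 lower. In the respiratory chain these counts were 7 and 2. Over all probes tested 13.9% had groups that did not overlap. The lists of antioxidant (4 of 8 above 0, median 0.01), proliferation (3 of 4, 0.02), immediate early (2 of 5, −0.00), meningeal fibroblast (2 of 3, 0.07), microglia (0 of 3, −0.16) and class I histocompatibility and interferon response genes (4 of 6, 0.07) had no called gene either, and the mural list had 0 measured genes. Within slides 1, 2 and 3 the synapse median was −0.29, −0.10 and −0.02. It was −0.61, −0.08 and −0.05 for striatum, −0.43, −0.11 and −0.01 for microglia and −0.27, −0.10 and −0.06 for interneuron. For immature neuron it was −0.03, −0.09 and −0.01. Slide 1 held CCH array 1, which stood apart above, and the part of that array in these medians was not tested.

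Single genes with the largest changes in these lists did not pass either. Mt1, a metal-binding metallothionein, lay at 12.79, 12.81 and 13.10 in CIH cortex and at 13.64, 13.41 and 13.48 in CCH cortex, without overlap, and its change was −0.61 ± 0.15 (limma, adjusted p = 0.13). Mt3, the metallothionein of brain, was at 0.54 (adjusted p = 0.36), but passed without CCH array 1 (0.85, adjusted p = 0.012) and was at −0.15 over the 13 arrays with low Xist (adjusted p = 0.76). In the respiratory chain Ndufa13, a subunit of complex I, was at 0.53 (adjusted p = 0.25) and Uqcrb, of complex III, at −0.66 (adjusted p = 0.68). Dlg4, the postsynaptic scaffold, was at −0.48 (0.64), the complexin Cplx2 at −0.41 (0.54), and the vesicular glutamate transporter Slc17a7 at −0.27 (0.69). Single arrays set the size of several of these values: without CCH array 1 Dlg4 was at −0.087, Slc17a7 at −0.045 and Uqcrb at −0.39, and without CIH array 2 Uqcrb was at −0.23.

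Among genes that earlier results had singled out against control, some did not pass between the exposures. Ddah1, which breaks down an inhibitor of nitric oxide synthase, lay at 10.52, 10.28 and 10.55 in CIH cortex, at 10.76, 10.36 and 10.53 in CCH cortex and at 9.25, 9.60 and 9.64 in control cortex. CIH and CCH overlapped and both lay above control, and CIH minus CCH was −0.10 ± 0.14 (limma, adjusted p = 0.86). The immediate early factors Egr2 (0.09 ± 0.16) and Fosl2 (−0.12 ± 0.12), the 2 immunoglobulin heavy chain probes of Ighm (0.28 and 0.04), the class I gene H2-D1 (0.37 ± 0.33), B3galt6 (0.19 ± 0.17) and Brat1 (0.27 ± 0.20) did not pass. Xist was at −1.22 ± 1.16 and Kdm5d, a Y-linked demethylase, at 0.12 ± 0.14, and neither passed.

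Each exposure was also set against control cortex, with the same 3 control arrays in both comparisons. In CIH against control 22 probes were called (0.150%), and in CCH against control 124 (0.846%). Fgfr1op2 was at −0.10 in CIH and 2.39 in CCH, Nudt19 at −0.04 and −1.83, Rgs8 at 0.08 and −0.50, Scd2 at 0.07 and −0.40, Hba-a1 at 0.41 and 1.26 and Hbb-b1 at 0.04 and 1.12; for each of these limma called CCH and not CIH. Zfp24, at 0.02 in CIH, was detected on 0 of 3 CCH arrays and was there at least 1.16-fold lower than in control cortex (adjusted p = 0.0053, limma). For Krt12 (1.70 in CIH and 0.19 in CCH), Dctn4 (−0.78 and 0.03) and Pop4 (−1.29 and −0.18) it called CIH and not CCH. Padi2, at −0.58 in CIH and −1.09 in CCH, was called in both. Arsa, Id3, Ckb, BC003965, 4833439L19Rik, Arhgap29, Fstl5 and Pde1a were called in neither comparison with control.

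**Figure D4:**
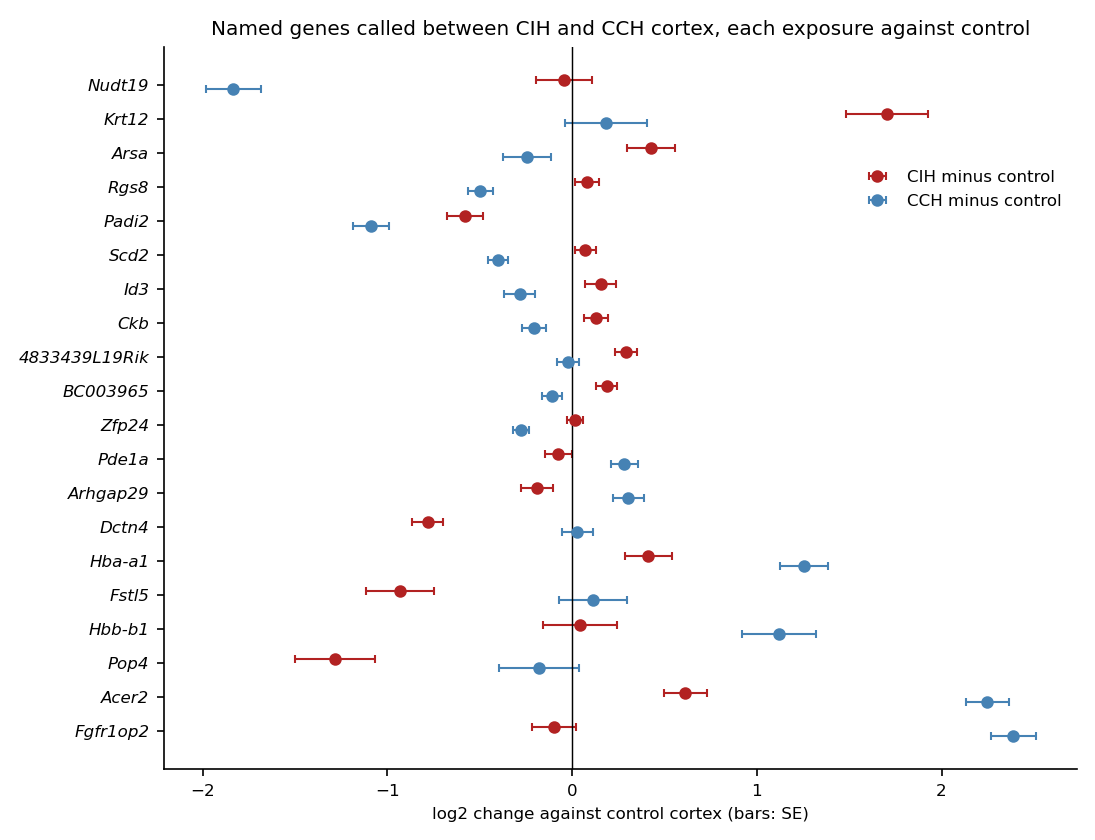
Log2 change against control cortex of CIH (red) and CCH (blue) for the 20 named genes called between CIH and CCH cortex; bars are standard errors from limma, and the same 3 control arrays enter both. Zfp24 was below detection on every CCH array, so its CCH point is no exact value. CIH lies near 0 for Fgfr1op2, Nudt19 and Hbb-b1, and CCH lies near 0 for Dctn4, Krt12 and Pop4.

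The hippocampus arrays gave the same contrast in another tissue, with no array shared. Both tissues of a replicate number were on the same slide, and the labels do not say whether they came from the same mice, so the tissues may not be independent. In hippocampus 969 probes (6.61%) had an unadjusted p under 0.05 in limma and 42 were called between CIH and CCH (0.287%), 14 higher (0.0955%) and 28 lower (0.191%). Of the 69 cortex calls 26 were called in hippocampus too, all in the same direction, which is 37.7% of the cortex calls and 61.9% of the hippocampus calls. Of the 69, 64 had the same sign in hippocampus, against 43.3% of all probes tested. The 26 held 8 named genes: Fgfr1op2, Acer2, Nudt19, Dctn4, Pop4, Hba-a1, Zfp24 and 4833439L19Rik.

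Fgfr1op2 lay at 6.91, 6.75 and 6.90 in CIH hippocampus, against 9.68, 9.71 and 9.64 in CCH hippocampus, a change of −2.82 ± 0.12 (limma, adjusted p = 1.4e-08). Acer2 changed by −1.98 ± 0.12 there (adjusted p = 6.7e-07), Nudt19 by 1.58 ± 0.15 (adjusted p = 0.00018) and Hba-a1 by −0.71 ± 0.13 (adjusted p = 0.033). Krt12 was at 0.37 ± 0.22 in hippocampus (adjusted p = 0.86), with 7.14, 7.02 and 6.84 on its CIH arrays and 6.77, 6.56 and 6.56 on its CCH arrays, of which 1 of 3 detected it. Rgs8 was at 0.10 ± 0.07 (adjusted p = 0.89) and Pde1a at 0.05 ± 0.07 (adjusted p = 0.98).

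The difference between the tissues was tested as an interaction of tissue with exposure. In limma it called 0 of 14659 probes (0%), with a smallest adjusted p of 0.11, while 1275 probes (8.70%) had an unadjusted p under 0.05. For Rgs8 the cortex change exceeded that of hippocampus by 0.48 (adjusted p = 0.44), for Krt12 by 1.15 (adjusted p = 0.50) and for Scd2 by 0.31 (adjusted p = 0.48). Pde1a differed by −0.41 (adjusted p = 0.44). Over the 13 arrays with low Xist the interaction called 95 probes, with CCH cortex held by array 1 alone, and without CCH cortex array 2 it called 1.

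**Figure D5:**
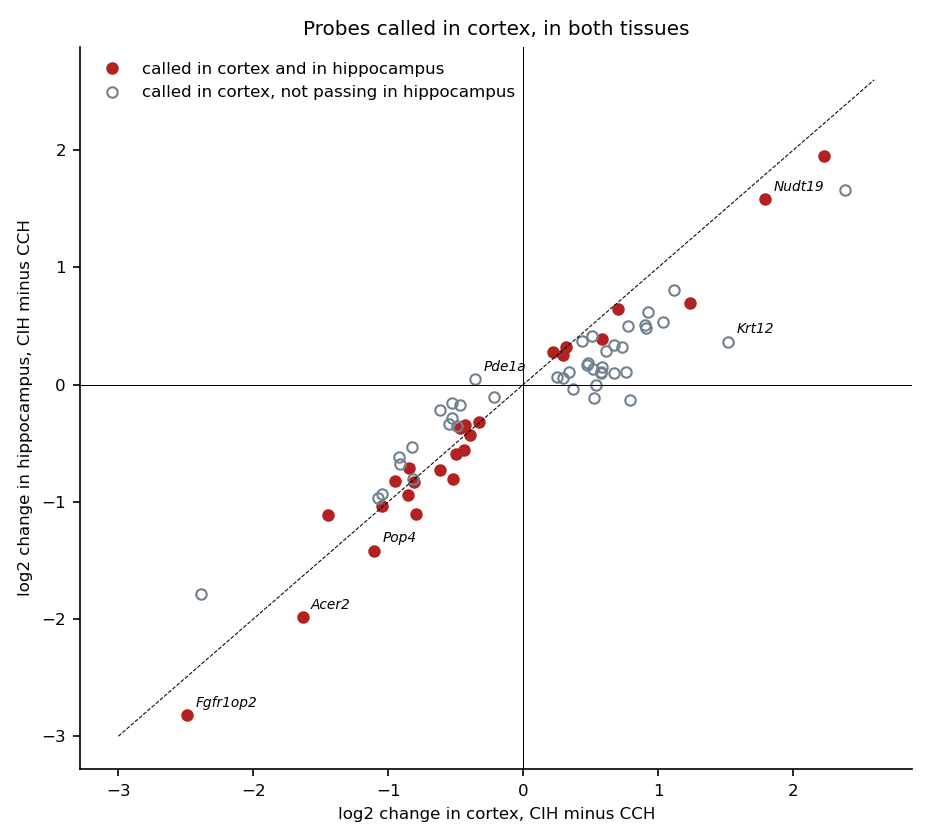
Log2 change (CIH minus CCH) in hippocampus against that in cortex for the 69 probes called in cortex; filled red points are the 26 called in hippocampus too, open points the rest, and the dashed line marks equal change. Fgfr1op2, Acer2, Pop4 and Nudt19 lie near the line, and Krt12 lies toward 0 on the hippocampus axis.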

How the data were processed

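Total RNA from 18 cortex and hippocampus samples, 100 ng each, was labelled with biotin and hybridized. The authors' deposited scanner table gives a raw intensity per probe and array, not normalized per the file headers, and a detection score, a fraction of up to 1 that ranks a probe against negative controls. The deposited series values, intensity with a constant subtracted and dim cells empty, served as an alternative. The submitters' processing notes name BeadStudio 2.0 and the export's header 1.5.1.3. A further 108 columns were not used.

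Normalization used neqc of limma 3.58.1 in R 4.3.3 (background from 1 minus the score, offset 16, quantile normalization, log2). Probes had to exceed a score of 0.99 on 3 or more of 18 arrays, without control and ribosomal RNA probes. Per array 12244 to 14520 probes were detected, at a median raw intensity of 70.8 to 96.4. All 18 arrays entered a fit with group means (lmFit, eBayes, 12 residual degrees of freedom), with two-sided p-values adjusted by Benjamini-Hochberg. The procedure was tested on simulated data, drawn independently for each array, without slide effects or outlying arrays. That simulation therefore cannot show how such features of these arrays affect the calls. The 3 arrays per group limit the precision, and since nothing says that replicates were separate animals, p-values measure the spread between samples, which may be technical.

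Genes were named by reading the number in zero-padded probe identifiers as an NCBI gene ID (82.6% of 11897 matched a mouse gene, against 46.2% or less with the number shifted), and by clone names and accessions. Names reached 4660 of the 14659 probes tested (31.8%), for 4167 genes. The text names the called genes with groups that do not overlap, up to 12 per direction, then the next named probes, the called or 2 largest members of each list, and genes singled out earlier; a list uses the probe of highest mean signal per gene. Some genes that this rule names are not reported here. The comparison, the 26 lists and the named genes were chosen with earlier results of these data known, and lists carry no test.

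Replicate numbers equal slides per the deposited hybridization log. After group means were removed, CIH and CCH cortex arrays of the same number correlated at 0.253, 0.538 and 0.277. Arrays of unlike numbers correlated at −0.39 to 0.0686, values that the removal of group means pulls below 0. The numbers may thus pair the samples, which was not tested. The main fit left the pairing out, and the fit with the slide as a block took it in. Alternatives changed the background correction, normalization, offset, filter, block, groups fitted, variance trend, source values, Xist handling and replicates.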

Additional observations from a re-analysis of the deposited data

How the results depend on the processing

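The 69 cortex calls were 36 without the filter on dim probes (45620 tested), 33 with the spread from the 6 compared arrays alone (14 of the 20 named calls lost, adjusted p = 0.063 to 0.40, limma), 7 from the deposited series values (8514 tested), 368 over the 13 arrays with low Xist, 31 to 49 when 1 array was left out, and 28 without CCH array 1 and CIH array 2, an alternative chosen after seeing the data. They stayed within 58 to 95 under the other alternatives, and with slides paired as a replicate block they were 80, of which 65 were among the 69; of the named calls Padi2 and Pop4 were lost there and no other. The 42 hippocampus calls were 22 without the filter, 20 from the compared arrays alone, 5 from the series values (8163 tested), 17 with low Xist, 24 to 35 with 1 array left out and 42 with the block. The interaction called 0 with the block, 1 with median scaling, 1 with Xist as a covariate, 95 with low Xist and 0 to 1 with 1 array left out. The 20 named calls kept direction in all 354 alternatives and passed in 217. The changed filters, the block, the compared groups alone and the variance trend leave the estimate of a probe as it was. Direction could not change in those, and only the adjusted p could. Nudt19 passed in all 18 of its own alternatives, and Acer2 and Dctn4 in all of theirs but the series values (adjusted p = 0.9997 and 0.27, limma). Fgfr1op2 passed in the 16 in which it had a value; the series values and the filter for detection on all 18 arrays gave it none. Changes that had not passed turned sign over the 13 arrays with low Xist for Mt3 (−0.15), Robo4 (0.050), Nr4a2 (0.16), Mxi1 (0.019), Dcn (−0.0045), Kdm5d (−0.0098), Xist (0.00051) and the second Fgfr1op2 probe (−0.0075), and with Xist as a covariate for Kdm5d (−0.012). Leaving out 1 array gave either sign for Atp2a2 (−0.48 to 0.036), Stmn1 (−0.72 to 0.033), Ddah1 (−0.20 to 0.0076), Nr4a2 (−0.33 to 0.0096), Mxi1 (−0.31 to 0.025), Egr2 (−0.10 to 0.21), an Ighm probe (−0.069 to 0.10) and the second Fgfr1op2 probe (−0.017 to 0.024). Of the list medians 298 of 357 values moved by less than the spread between replicates, a count that includes the alternatives that leave every estimate as it was. The cause of these differences was not tested. Dim probes limit what can be seen, since Zfp24 was below detection in CCH cortex.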

Other observations

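Among the 49 called probes without a gene name 25 were higher and 24 lower in CIH than in CCH cortex, with changes from −2.39 to 2.38 log2 units. The largest rise lay at 9.15, 9.80 and 9.92 on the CIH arrays and at 7.21, 7.20 and 7.31 on the CCH arrays, with control cortex at 10.01, 9.98 and 9.68. The largest fall lay at 7.58, 7.11 and 7.36 on the CIH arrays and at 9.90, 9.73 and 9.59 on the CCH arrays, while control cortex was uneven at 7.79, 7.35 and 9.18. Both were chosen after their values were seen.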
